A study of Mus musculus with 4 samples.

Results

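The fibulins Efemp1, Efemp2, Fbln1, Fbln2 and Fbln5, together with the matrix proteins Mamdc2 and vitrin (Vit), were followed in growth plate cartilage with and without Ift88. Members were the probe sets whose array annotation names exactly 1 of these 7 genes, a set picked for differences seen in these same arrays. Of the 45101 probe sets, 10 qualified, and they cover 6 of the 7 genes among 18193 genes on the array. Efemp2 is not analysed here. Because the members were picked on this contrast, their differences are given as a description without a test.

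The study used Affymetrix mouse arrays on RNA from chondrocytes of the proliferative zone, where growth plate cells divide, taken by needle from hindlimb sections at postnatal day 7. There were 2 Control arrays, labelled wild-type, and 2 Ift88-deleted arrays (Col2aCre;Ift88fl/fl), all on C57BL/6. Ift88 encodes an intraflagellar transport protein needed to build the primary cilium, and the Cre recombinase that removes it acts in cells that have used the type II collagen promoter, so cells of another origin keep the gene. The labels do not say whether the Control mice carried Cre or floxed alleles, how many animals gave each sample, or their sex. The design calls the replicates biological.

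Fibulins are secreted glycoproteins built from calcium-binding EGF-like repeats and a shared C-terminal domain. Fbln1 and Fbln2 are the larger members and bind basement membrane proteins, fibronectin and the lecticans aggrecan and versican, of which aggrecan fills cartilage matrix. Efemp1, Efemp2 and Fbln5 are short fibulins, and Efemp2 and Fbln5 are required to assemble elastic fibres. Vit carries von Willebrand A domains, as the cartilage matrilins do, and Mamdc2 is a secreted proteoglycan with MAM domains.

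In GRCm38.p6, the assembly of the RefSeq gene table, Efemp1 lies on chromosome 11 (28853154 to 28926743), Fbln1 on 15 (85205949 to 85286294), Fbln2 on 6 (91212460 to 91272540) and Fbln5 on 12 (101746565 to 101819119). Mamdc2 lies on 19 (23302609 to 23448497) and Vit on 17 (78508051 to 78627409). The place of each probe set within its gene was not analysed here. Upstream bases from RefSeq are shown for Efemp1, the fibulin with higher values in the Ift88-deleted arrays, and for Fbln5, also a short fibulin, whose values differed little. Each run ends at the outer bound of the gene given above and is written 5′ to 3′ in the direction of transcription. For Efemp1 the RefSeq entry starts at a transcript 51 bases inside that bound, and those bases were cut off, which leaves 199 bases, against 250 for Fbln5. Capitals mark a motif match.
Efemp1 promoter, chr11:28852955-28853153, plus strand: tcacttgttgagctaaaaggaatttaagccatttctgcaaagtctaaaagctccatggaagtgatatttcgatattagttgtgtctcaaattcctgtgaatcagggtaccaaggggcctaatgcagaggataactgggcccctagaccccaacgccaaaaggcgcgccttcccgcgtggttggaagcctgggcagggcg
Fbln5 promoter, chr12:101819120-101819369, minus strand: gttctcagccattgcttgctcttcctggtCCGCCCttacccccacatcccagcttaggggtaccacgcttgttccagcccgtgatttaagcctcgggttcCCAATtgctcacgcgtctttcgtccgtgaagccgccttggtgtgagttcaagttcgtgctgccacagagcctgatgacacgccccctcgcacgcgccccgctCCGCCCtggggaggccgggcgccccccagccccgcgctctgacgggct
The capitals in Fbln5 are the GC box GGGCGG on either strand, which begins 221 and 48 bases before the end of the run, and CCAAT, which begins 150 bases before it. Of 32851 RefSeq windows of 250 bases, 32.7% hold a GC box and 33.8% a CCAAT. Efemp1 holds neither, and over the same 199 bases of each window the shares are 24.4% and 28.2%. Other motifs searched on both strands were TATAAA (12.4% of windows of 250 bases), the GLI motif GACCACCCA (0.225%), the TCF/LEF motif CTTTGAT (3.21%), the SOX motif ACAATGG (3.02%) and the AP-1 motif TGACTCA (4.46%). Over 199 bases their shares, in the same order, are 9.11%, 0.192%, 2.63%, 2.37% and 3.59%. None of these letters occurs in the printed runs. The matches do not overlap one another.

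On the deposited log2 scale each probe set had its own 4-array median subtracted. The values therefore compare arrays and, apart from coarse rounding steps, say nothing of a gene's level. With 4 arrays this centring also places the middle pair of values at equal distances above and below 0. A difference is the mean of the Ift88-deleted arrays minus the mean of the Control arrays, and a fold is that difference taken out of the log2 scale.

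Efemp1 and Mamdc2 were higher and Vit lower in both Ift88-deleted arrays, while the fibulins Fbln1, Fbln2 and Fbln5 differed by less than 1.4-fold in every probe set. For Efemp1 the Control arrays read -0.76 (replicate 1) and -1.14 (replicate 2), and the Ift88-deleted arrays read 2.05 (replicate 1) and 0.76 (replicate 2). Both Ift88-deleted arrays lay above both Control arrays, and Ift88-deleted 1 stood highest. The means were -0.95 ± 0.27 (SD, n = 2) and 1.40 ± 0.91 (SD, n = 2), a difference of 2.35 or 5.10-fold. In these bulk samples, a change in RNA per cell cannot be told apart from a change in how many cells of a type were collected.

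Mamdc2 varied less between replicates of the Ift88-deleted group than Efemp1. Replicates 1 and 2 read -0.67 and -1.24 in the Control group and 0.67 and 1.04 in the Ift88-deleted group. The groups did not overlap, and their means of -0.95 ± 0.41 (SD, n = 2) and 0.86 ± 0.27 (SD, n = 2) differed by 1.81, or 3.50-fold. The gap between replicates was 0.57 in the Control group and 0.38 in the Ift88-deleted group.

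Vit differed in the other direction. Replicates 1 and 2 of the Control group read 0.67 and 1.59, and those of the Ift88-deleted group -0.67 and -0.76. The Ift88-deleted arrays were close together and below both Control arrays, of which Control 2 was the higher. The means were 1.13 ± 0.65 (SD, n = 2) and -0.72 ± 0.067 (SD, n = 2), a difference of -1.84, so Vit was 3.59-fold lower.

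Among all 18193 genes ordered by difference, Efemp1 was number 3 and Mamdc2 number 6 from the highest, and Vit was number 11 from the lowest. Groups apart with at least a 2-fold higher mean were found in 0.165% of genes, and with at least a 2-fold lower mean in 0.385%. Nothing is read from these shares for Efemp1, Mamdc2 and Vit, since the choice of members used the contrast. Each of the 3 genes is read by a single probe set (1427183_at, 1453152_at and 1426231_at), as are 50.5% of genes on the array and 63 of the 100 genes with groups apart by at least 2-fold. No second probe set was there to compare with. For each of the 3, the rounding of the deposited values shows that at least 1 array was below 8 on the original log2 scale.

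**Figure D1:**
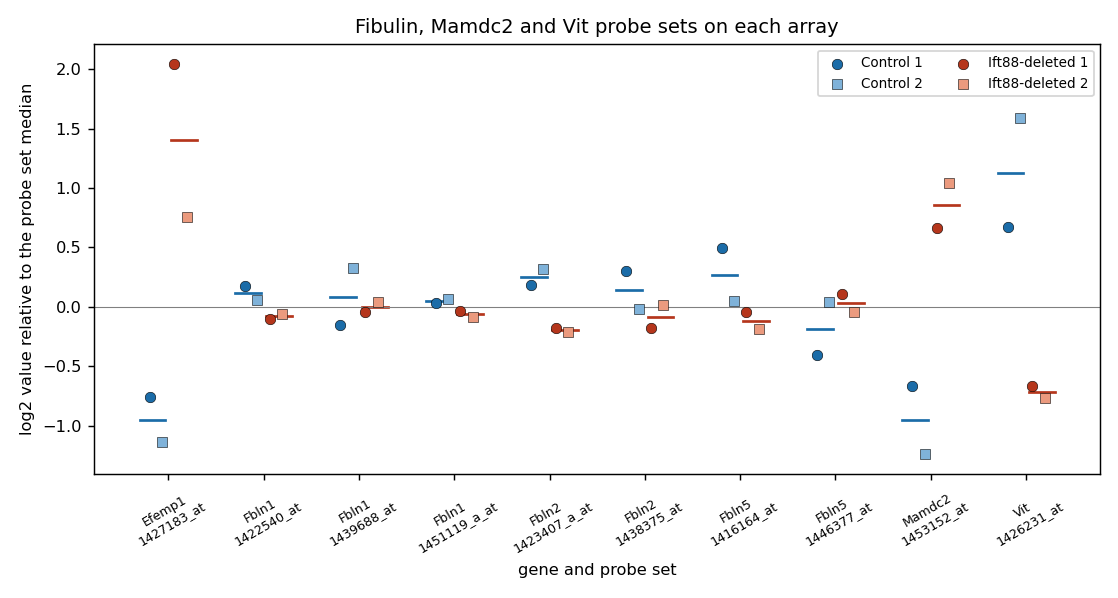
Log2 value relative to the probe set median (vertical axis) of the 10 member probe sets (horizontal axis) on each of the 4 arrays, with short lines at the mean of each group (n = 2). Efemp1 and Mamdc2 lie above 0 in both Ift88-deleted arrays and below 0 in both Control arrays, Vit the other way, and the 7 probe sets of Fbln1, Fbln2 and Fbln5 stay between -0.41 and 0.50.

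The larger fibulins Fbln1 and Fbln2 had slightly lower means in the Ift88-deleted arrays. Fbln2, which links basement membrane and lectican networks, has a probe set (1423407_a_at) at 0.18 and 0.32 in replicates 1 and 2 of the Control group and at -0.18 and -0.21 in those of the Ift88-deleted group. There the groups were apart, with a difference of -0.45. Its other probe set (1438375_at) read 0.30 and -0.016 in the Control arrays and -0.18 and 0.016 in the Ift88-deleted arrays. On that one the groups overlapped and the difference was -0.22. The rounding of the deposited values shows that at least 1 array was below 4 on the original log2 scale for this second probe set, the dimmest of the 3 classes that could be told apart. Averaged over both, Fbln2 differed by -0.33, or 1.26-fold.

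Fbln1, which binds fibronectin and the lecticans, was nearly level. Its 3 probe sets differed by -0.20, -0.087 and -0.11, the first and the last with groups apart. The probe set with the largest of these (1422540_at) read 0.18 and 0.060 in the Control arrays and -0.10 and -0.060 in the Ift88-deleted arrays. Averaged, the gene differed by -0.13, or 1.10-fold, close to the gap of 0.13 between its Control arrays.

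For Fbln5, a short fibulin that tethers elastic fibres to cells through integrins, the probe sets disagreed in sign. The first (1416164_at) read 0.50 and 0.046 in the Control replicates and -0.046 and -0.19 in the Ift88-deleted replicates, each in the order 1, 2. This is a difference of -0.39 with groups apart, and Control 1 was the outlying value. The second (1446377_at) read -0.41 and 0.039 against 0.11 and -0.039, a difference of 0.22 with groups that overlapped and Control 1 again outlying, this time low. Their mean of -0.084 therefore describes neither probe set.

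Over the 10 member probe sets, the groups did not overlap in 2 on the higher side and 5 on the lower side. The same held for 16.2% and 17.4% of the 45037 probe sets tested. As the contrast chose the genes, nothing is read from these counts.

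Averaged over probe sets, the groups of all 6 genes were apart, against 14.7% of all genes higher and 18.6% lower with groups apart. As the contrast chose the members, nothing is read from this. For Fbln5 the gap between the groups was only 0.0096, in a mean of 2 probe sets of opposite sign. With groups apart, dropping 1 array could not turn a sign, so only the sizes are described. The Efemp1 difference ran from 1.70, when Ift88-deleted 1 was dropped, to 2.996, when Ift88-deleted 2 was. Dropping a Control array gave 2.54 (replicate 1) and 2.16 (replicate 2). The gap between its Ift88-deleted arrays, 1.29, was wider than that of 99.8% of genes. The Vit difference was smallest, at -1.38, when Control 2 was dropped and -2.30 when Control 1 was. The gap between its Control arrays, 0.92, was wider than that of 98.8% of genes. Mamdc2 stayed between 1.52 and 2.10. The gaps between its replicates were wider than those of 92.4% of genes in the Control group and 91.0% in the Ift88-deleted group. Fbln2 stayed between -0.38 and -0.29, Fbln1 between -0.20 and -0.064, and Fbln5 between -0.16 and -0.011, the last value coming without Ift88-deleted replicate 2.

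**Figure D2:**
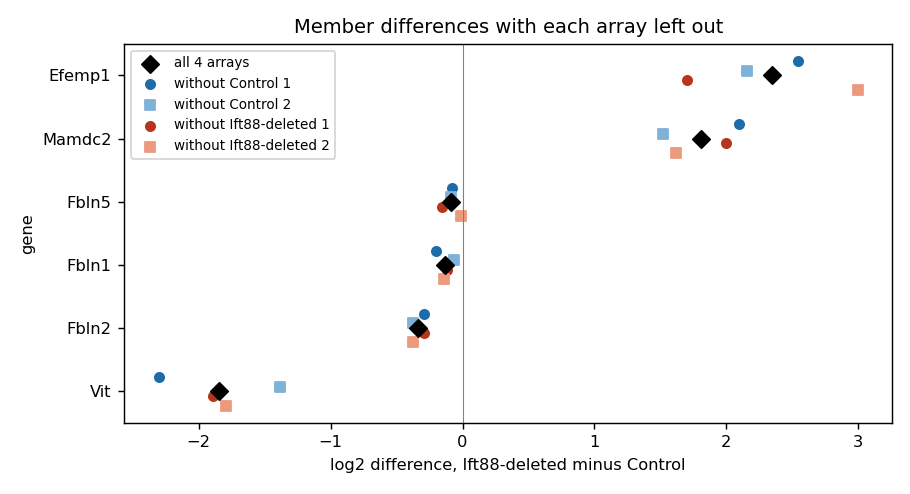
Log2 difference, Ift88-deleted minus Control (horizontal axis), for the 6 member genes (vertical axis), with all 4 arrays (diamonds) and with each array left out in turn (coloured points). Efemp1 spans 1.70 to 2.996 and Vit -2.30 to -1.38, and the points of Fbln1, Fbln2 and Fbln5 lie between -0.38 and -0.011.

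Facts of the whole series bear on these values. Xist, the RNA of the inactive X chromosome, passed the test over all genes with lower values in the Ift88-deleted arrays (log2 difference -7.36, adjusted p = 9.28e-05), and the Y-linked Eif2s3y passed with higher values (3.34, adjusted p = 0.00876). These were the only 2 of 18193 genes to pass at an adjusted p of 0.05 in limma (0.011% of genes). Both Control arrays had the female pattern and both Ift88-deleted arrays the male pattern of these genes, so sex and genotype cannot be told apart for any member. Control 1 stood apart on the first principal component (-30.8, against 3.36 to 19 for the others). Ift88 itself, read by 1 probe set whose place relative to the deleted part was not analysed here, differed by 0.080 (adjusted p = 1). The chondrocyte genes Col2a1, Acan and Sox9 differed by 0.25, 0.0037 and 0.035 with groups that overlapped. Since levels were removed by the centring, the labelled cell type could be looked at only through the rounding steps, which put Col2a1, Acan and 2 of the 3 Sox9 probe sets in the brightest class, 8 or more on the log2 scale.

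Some markers of neighbouring tissues had high values on the arrays where Efemp1 and Vit were highest. The 10 measured perichondrium and fibroblast markers had a mean of 0.78 in Ift88-deleted 1, the array where Efemp1 was highest, against -0.26 and 0.014 in the Control arrays and -0.30 in Ift88-deleted 2. The mean of 0.78 rests largely on the matrix proteins Postn and Col3a1, which read 3.47 and 1.70 in Ift88-deleted 1. The other markers ran from -0.013 (Dpt) to 0.83 (Thy1) on that array. In Ift88-deleted 2, Postn read -0.65 and Col3a1 -1.27 while Efemp1 read 0.76. Mamdc2, unlike Efemp1, was higher in Ift88-deleted 2 (1.04) than in Ift88-deleted 1 (0.67). Of these 10 markers 3 (Dcn, Thy1 and Twist2) were higher with groups apart and 0 lower, against 14.7% of all genes higher and 18.6% lower. The part of such tissue in the Efemp1 and Mamdc2 values was not tested.

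The 4 articular surface markers had a mean of 2.08 in Control 2, where Vit was highest, against -0.14 in Control 1 and 0.089 and -0.11 in the Ift88-deleted arrays. This mean rests on Prg4, the lubricating proteoglycan of the joint surface, which read 7.52 in Control 2 and 0.011 in Control 1, with Cilp at 0.57 in Control 2. Vit read 1.59 in Control 2 and 0.67 in Control 1. The part of articular surface tissue in the Vit value was not tested. The 6 skeletal muscle markers had means of 0.26 and 0.35 in the Control arrays and -0.17 and -0.21 in the Ift88-deleted arrays. Tnni2, fast skeletal troponin I, lay furthest from 0 of the 6 on every array. It read 1.05 and 0.88 in the Control arrays and -0.86 and -1.14 in the Ift88-deleted arrays (difference -1.96, adjusted p = 0.0673 in limma). In Control 2, Myl1 and Acta1 also read 0.61 and 0.57. The differences of all 6 were below 0, as were those of 9433 of the 18193 genes. Of the 6 genes 2 (Myh3 and Tnni2) were lower with groups apart, against 18.6% of all genes, and Acta1, Ckm, Tnnt3 and Myl1 overlapped. The macrophage and osteoclast list (0.94) and the osteoblast list (0.45) also had their highest means in Control 2. The osteoblast mean was nearly as high in Ift88-deleted 1 (0.42). The part of muscle, macrophages, osteoclasts or osteoblasts in the Vit value was not tested.

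**Figure D3:**
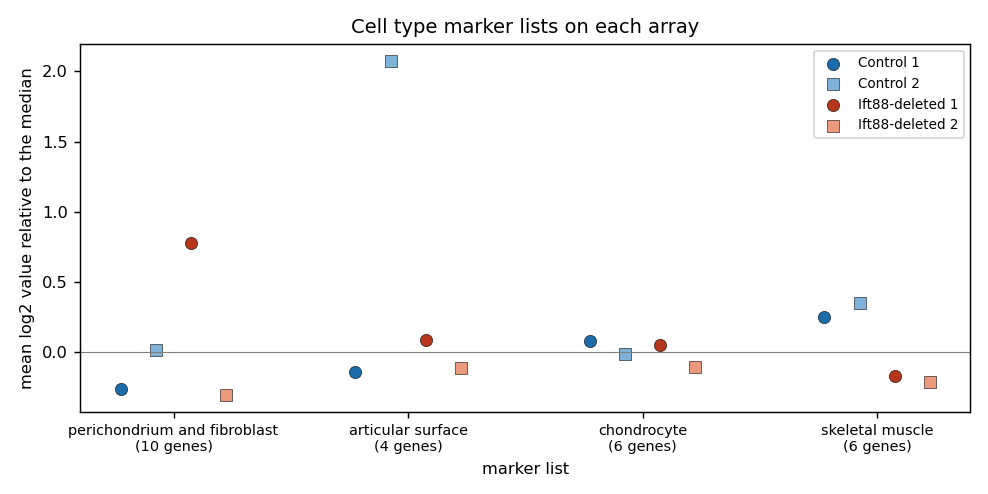
Mean log2 value relative to the median (vertical axis) over the genes of 4 cell type marker lists (horizontal axis) on each array. The perichondrium and fibroblast list stands at 0.78 in Ift88-deleted 1 and the articular surface list at 2.08 in Control 2, with the other arrays of those lists between -0.30 and 0.089.

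The genes most like each member over the 4 arrays were found by Euclidean distance between the values, leaving out members and predicted genes. Nearest to Efemp1 was Chad (distance 0.67), a leucine-rich cartilage matrix protein that read -1.06 and -0.82 in the Control arrays and 1.54 and 0.82 in the Ift88-deleted arrays. The next were Tpbg (1.05), a membrane glycoprotein that dampens Wnt signalling, and Calml3 (1.13), a calmodulin-like protein. All 3 had their highest value in Ift88-deleted 1, as Efemp1 did, a likeness that the choice by distance favours.

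Nearest to Mamdc2 were Ninl (0.46), a ninein-like protein of the centrosome, and the Y-linked histone demethylase genes Kdm5d (0.58) and Uty (0.60). Ninl read -0.52 and -0.84 in the Control arrays and 0.52 and 0.91 in the Ift88-deleted arrays. Both Y-linked genes divide the arrays by sex, which cannot be told apart from genotype here.

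Nearest to Vit were Fxyd2 (0.62), a regulator of the sodium pump, Hps5 (0.70), which acts in forming lysosome-related organelles, and Rbp4 (0.71), the retinol carrier. Fxyd2 read 0.43 and 1.06 in the Control arrays and -0.48 and -0.90 in the Ift88-deleted arrays, so that Control 2 was again the higher Control array. Likeness over 4 arrays follows from how the nearest genes were picked and only describes these arrays.

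**Figure D4:**
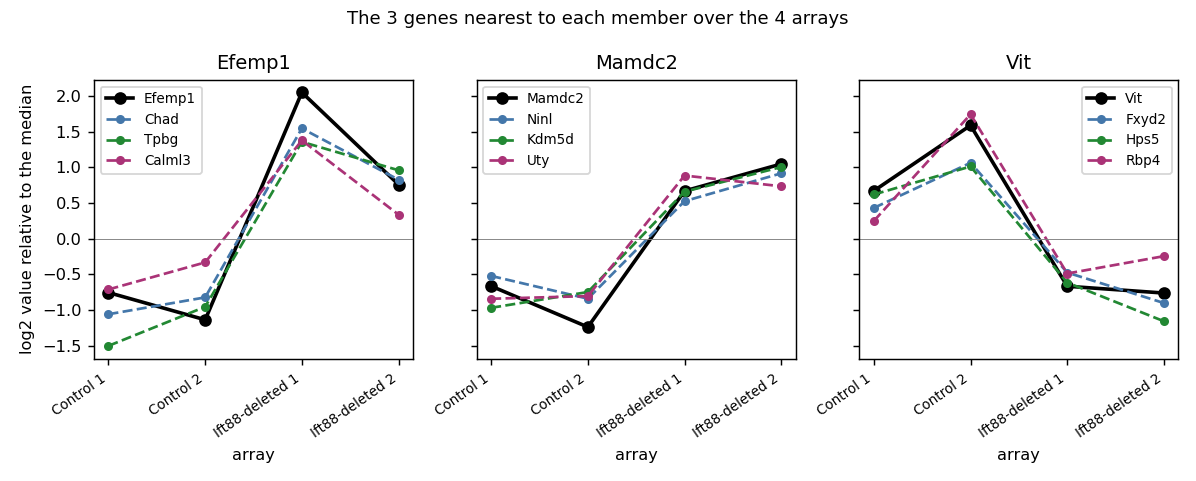
Log2 value relative to the median (vertical axis) on the 4 arrays (horizontal axis) for Efemp1, Mamdc2 and Vit (solid black) and the 3 genes nearest to each (dashed). Distances run from 0.46 for Ninl to 1.13 for Calml3.

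The measured protein-coding genes beside the members on the chromosome were also read. The nearest of these to Efemp1 are Ccdc85a and Pnpt1, 266 and 203 kb away. They differed by 0.041 and 0.071 (adjusted p = 1 for each in limma over all genes). Mamdc2 lies next to Smc5, a chromosome maintenance gene 28.7 kb away that differed by -0.046 (adjusted p = 1). The nearest to Vit are Fez2 and Strn, which differed by -0.27 (adjusted p = 0.942) and -0.22 (adjusted p = 0.963) with groups that overlapped. Of the 12 flanking genes 0 passed the test and 1 had an unadjusted p under 0.05. Groups were apart in 2 of them, Ribc2 and Atxn10, which flank Fbln1 and differed by -0.35 and 0.092, against 14.7% of genes higher and 18.6% lower with groups apart on the whole array.

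Partners and relatives of the members were read from 6 lists chosen by function, holding 73 measured genes. In limma 0 of the 73 passed over all genes, and 6 had an unadjusted p under 0.05, against 1085 of 18193 genes. The median difference over all genes was -0.0068.

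Of the remaining fibulins, Fbln7 had lower values: it read 0.41 and 0.35 in the Control arrays and -0.35 and -0.49 in the Ift88-deleted arrays, a difference of -0.80 (SE 0.13, n = 2 per group) that did not pass (adjusted p = 0.312). Hmcn1, a very large fibulin-related protein, differed by 0.11 with groups that overlapped.

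The 16 measured elastic fibre genes, the partners of the short fibulins, had a median difference of 0.085, with 2 higher and 1 lower with groups apart (14.7% and 18.6% of all genes). Mfap4, a microfibril-associated protein, read -0.55 and -0.23 in the Control arrays and 0.23 in both Ift88-deleted arrays (difference 0.62, adjusted p = 0.633). Emilin3 was at -0.40 (adjusted p = 0.820) and the cross-linking enzyme Loxl3 at 0.29 (adjusted p = 0.864). Elastin itself (Eln) was at 0.20 and Fbn2 at -0.053, both with groups that overlapped.

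The 18 basement membrane genes, to whose products Fbln1 and Fbln2 bind, had a median of 0.098, with 3 higher and 2 lower with groups apart (14.7% and 18.6% of all genes). Col4a2, a type IV collagen chain, read -1.13 and -0.16 in the Control arrays and 0.86 and 0.16 in the Ift88-deleted arrays (difference 1.15, SE 0.37, adjusted p = 0.792). As for Efemp1, Ift88-deleted 1 was the highest array. Among genes with groups apart, Agrn (0.28) and the fibulin-binding nidogen Nid1 (0.25) followed, each at an adjusted p of 0.898. Col4a1, the partner chain of Col4a2, was at 0.59 with groups that overlapped.

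Among 12 known ligands and partners of fibulins the median was 0.013, with 2 higher and 2 lower with groups apart (14.7% and 18.6% of all genes). Fn1, fibronectin, was at 0.86 (adjusted p = 0.830), from 1.19 in Ift88-deleted 1 and 0.081 in Ift88-deleted 2 against -0.37 and -0.081 in the Control arrays. Without Ift88-deleted replicate 2 it was at 1.42 and passed (adjusted p = 0.0326), a fit in which the Ift88-deleted group is the 1 array with the highest Fn1 value and is assumed to vary like the Control arrays. Timp3, a protease inhibitor that binds Efemp1, was at -0.54 (adjusted p = 0.820). Adamts1, a protease for which Fbln1 is a cofactor, was at -0.57 (adjusted p = 0.885), with -0.94 in Ift88-deleted 2 and -0.066 in Ift88-deleted 1.

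The 12 von Willebrand A domain genes, relatives of Vit, had a median of -0.018, with 3 higher and 1 lower with groups apart (14.7% and 18.6% of all genes). Matn2, a matrilin, had the largest difference of all 73 genes and the same direction as Vit. It read 0.78 and 0.26 in the Control arrays and -0.26 and -1.25 in the Ift88-deleted arrays (difference -1.27, SE 0.35, adjusted p = 0.682), and it passed without Ift88-deleted replicate 1 (-1.77, adjusted p = 0.010), again a fit with a lone Ift88-deleted array, here the lowest, assumed to vary like the Control arrays. Col6a2 was at 0.59 (adjusted p = 0.881) and the cartilage matrilin Matn1 at 0.24 (adjusted p = 0.916). Coch, which shares its domain types with Vit, was at -0.18 with groups that overlapped.

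The 13 MAM domain genes, relatives of Mamdc2, had a median of 0.016, with 3 higher and 3 lower with groups apart (14.7% and 18.6% of all genes). The receptor phosphatases Ptpru and Ptprm were at 0.28 (adjusted p = 0.885) and -0.25 (adjusted p = 0.898), and Mamdc4 at -0.21 (adjusted p = 0.942). The 0.28 of Ptpru was the largest difference in size in this list, against the 1.81 of Mamdc2. Mamdc2 was picked for its difference here and the list by function, so nothing is read from that contrast. The medians of the elastic fibre, basement membrane, ligand, von Willebrand A domain and MAM domain lists each took both signs when single arrays were left out.

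**Figure D5:**
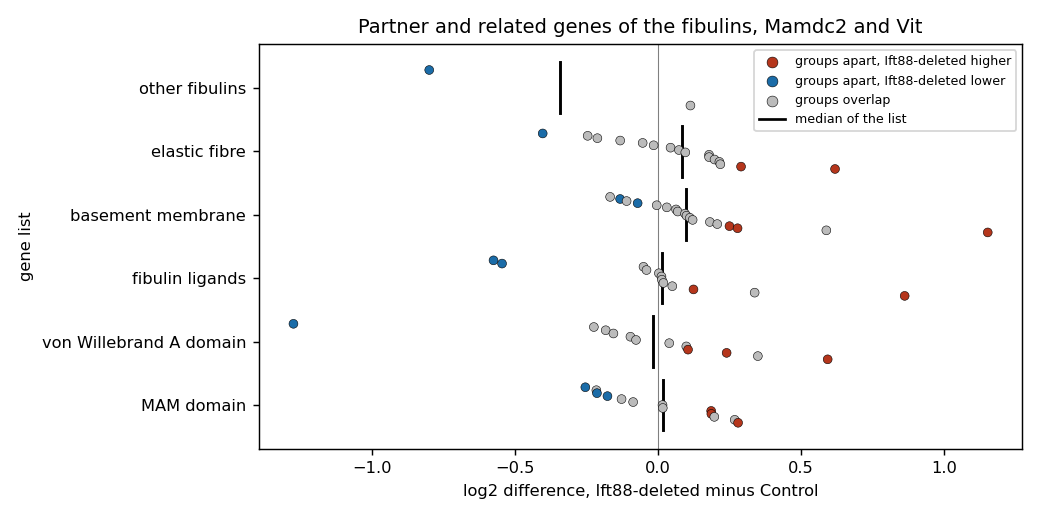
Log2 difference, Ift88-deleted minus Control (horizontal axis), of each measured gene in 6 lists of partners and relatives (vertical axis), coloured by whether the groups were apart, with the median of each list as a line. Medians of the 5 larger lists lie between -0.018 and 0.098, and Matn2 (-1.27) and Col4a2 (1.15) are the outermost genes.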

How the data were processed

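Microarray values of 4 samples were analysed, 2 Control and 2 Ift88-deleted. Per the labels, 50 ng of total RNA from 40 µm sections went through 2 rounds of amplification. The deposited values are log2, made by the authors with RMA per the submitters' processing notes. The row medians of the deposited table are 0 (largest departure 5.0e-07), so levels were removed. The log base was inferred from rounding steps of the values (tolerance 0.13 of a step), which also give a coarse brightness class. Of the brightest class, 21.9% also had the next coarser step, so the class can err upward. Arrays limit the precision by their number.

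After 64 control probe sets were left out, a gene was the mean of the probe sets naming it alone (34945 probe sets, 18193 genes). limma 3.58.1 under R 4.3.3 fitted group alone, with eBayes, two-sided, and Benjamini-Hochberg adjustment over all genes. An exact permutation test of 2 against 2 arrays cannot go below 0.333. A p-value sets the difference between groups against the spread between arrays within them. In limma that spread is drawn toward the spread of all genes (2 residual and 3.83 prior degrees of freedom). The fit was also run on simulated independent values with known changes. These held no sex difference and no outlying array, so that run does not bear on either here. Members and lists were chosen with earlier results of these data known. Named were all members, the 3 nearest genes of Efemp1, Mamdc2 and Vit, the 3 largest differences with groups apart of each list, and check genes. Protein-coding genes flanking the members were read as well. Elastin, Fbn2, Hmcn1, Coch, Col4a1, Smc5 and other flanking genes and single markers were named after their values were seen. Marker lists numbered 11. Alternatives were renewed quantile normalization, array medians subtracted, single probe sets, no dim class, no moderation, a threshold of 0.1, a replicate block and leaving out arrays.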

Additional observations from a re-analysis of the deposited data

How the results depend on the processing

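The count of genes called was 2 and became 14 with renewed quantile normalization, 4 with the dimmest class left out, 11 at an adjusted p under 0.1 and 1 without moderation, and 20 probe sets passed when each was tested by itself. With arrays left out it ran from 2 to 56, reaching 56 when Ift88-deleted 1 was dropped and 38 when Ift88-deleted 2 was. Same-numbered arrays share only a number (correlation of their deviations 0.139), and with the number as a replicate block 1 gene was called. Of the partner genes 0 to 1 were called with arrays left out (Fn1 or Matn2, each with a lone Ift88-deleted array assumed to vary like the other group). List medians ran from -0.083 to 0.20 (elastic fibre), -0.020 to 0.13 (basement membrane), -0.15 to 0.12 (ligands), -0.15 to 0.13 (von Willebrand A domain), -0.072 to 0.14 (MAM domain) and -0.16 to 0.59 (perichondrium and fibroblast). The MAM domain median was -0.049 after quantile normalization. Fbln5 had a difference of 0.22 in 1 probe set against -0.084 for the gene. The cause was not tested.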

Other observations

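The other marker lists are given by their mean on Control 1, Control 2, Ift88-deleted 1 and Ift88-deleted 2. The 4 macrophage and osteoclast markers had means of -0.37, 0.94, -0.60 and 0.17, with the osteoclast phosphatase Acp5 at 1.84 in Control 2 and -2.20 in Ift88-deleted 1. The 3 measured osteoblast markers had means of -0.13, 0.45, 0.42 and -0.79. The 6 chondrocyte markers had means of 0.080, -0.0085, 0.055 and -0.10. The 5 endothelium markers had means of -0.35, 0.19, -0.024 and 0.026. The means of the tendon, smooth muscle, red blood cell and adipocyte lists lay between -0.16 and 0.30 on every array.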
